A study of Bos taurus with 12 samples.

Results

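Fibroblast growth factor (FGF) ligands, their receptors and the Sprouty feedback inhibitors were followed through the differentiation of bovine myoblasts. The set held 10 of the 18436 genes in the deposited expression table, taken by gene name: the ligands FGF1, FGF2 and FGF7, the receptors FGFR1, FGFR2, FGFR3 and FGFR4, the receptor-like protein FGFRL1, and the inhibitors SPRY1 and SPRY2. They were selected on their FPKM and m6A peak values in the comparison of myoblasts with myotubes described below, so their differences between the groups are descriptions. No p-value is given for them. Their standard errors, intervals and calls come from the fit over all genes. They rest on the spread between libraries, taken in part from all tested genes, and support nothing further.

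Primary myoblasts came from the longissimus dorsi, a back muscle, of newborn Qinchuan cattle, and the methods of the study name a single newborn animal. Cells kept proliferating in growth medium with fetal bovine serum formed the GM group. Cells moved for 4 days to differentiation medium with horse serum formed the DM group. The labels name no genetic change and no further agent other than the penicillin/streptomycin of both media. There were 3 replicates a group, each sequenced as fragmented poly(A) RNA (input) and after immunoprecipitation (IP) with an antibody against N6-methyladenosine (m6A), which gives 12 samples. The study calls the replicates biological. The sources do not state whether they were separate isolations, so how much of the spread between libraries is technical is not known.

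Most FGFs are secreted proteins that bind receptor tyrosine kinases together with heparan sulfate on the cell surface. Receptor activation runs through adaptor proteins to the RAS-MAPK cascade, which induces its own inhibitors, among them the Sprouty proteins. In skeletal muscle, FGF2 is a well known mitogen of myoblasts, FGFR1 and FGFR4 are the receptors best known in myogenic cells, and Sprouty1 is known for its part in the quiescence of satellite cells. FGF7 is known as a ligand of the FGFR2 splice form of epithelia and is made mainly by mesenchymal cells.

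Expression was read as FPKM, fragment counts scaled to exon length and to sequencing depth. Over the 6 input libraries the correlation of log2(FPKM + 1) was 0.995 to 0.997 within GM, 0.997 within DM and 0.981 to 0.983 between the groups. All 5 cycling markers were lower in DM, with a summed level of 72.1 to 81.5 FPKM in GM and 6.79 to 9.47 FPKM in DM. Of 7 myotube markers 4 were higher in DM and 1, ACTA1, was lower, and their sum was 616 to 678 FPKM in GM and 1128 to 1175 FPKM in DM. Of 5 satellite cell and myoblast markers, PAX7, MYF5 and MYOD1 were lower in DM, while the summed level of this list was 538 to 565 FPKM in GM and 529 to 536 FPKM in DM. That sum was mostly DES, which was not called, with means of 453 FPKM in GM and 488.5 FPKM in DM. MYOD1 had means of 61.6 and 24.8 FPKM. MYOG, which marks cells that have begun to differentiate, stood at 197 ± 8.95 FPKM in GM (SD, n = 3). The 9 fibroblast markers were abundant in both groups, with a sum of 10607 to 10722 FPKM in GM and 11833 to 12377 FPKM in DM, mostly COL1A1 and COL3A1. Of these 9, POSTN was the 1 called, lower in DM. Endothelial markers summed to at most 0.653 FPKM and immune markers to at most 2.01 FPKM in any library. Mural cell markers summed to 32.6 to 35.1 FPKM in GM and 39.8 to 41.8 FPKM in DM, mostly PDGFRB. Of these, CSPG4 was called higher and NOTCH3 lower in DM. The sums lack KDR (endothelial), PTPRC and CD3E (immune) and RGS5 (mural), which were not in the table. In bulk RNA, fewer cells of a type and less RNA per cell cannot be told apart, and the part of the cycling, fibroblast and myotube markers in the values below was not tested.

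In both groups FGF7 was the most abundant of the ligands that have deposited values, and it was lower in myotubes. It lies on the minus strand of chr10:60791420-60854483 (ARS-UCD1.2, as are all coordinates here). Its level was 49.1, 43.5 and 37.4 FPKM in the GM libraries and 13.9, 14.7 and 14.4 FPKM in the DM libraries. Every GM library stood above every DM library, and the lowest GM value was 2.55 times the highest DM value. The group means were 43.4 ± 5.88 and 14.3 ± 0.363 FPKM (SD, n = 3 each), which is 3.02 times more in GM. On the log2(FPKM + 1) scale the fitted difference of DM from GM was -1.52 with a standard error of 0.0914.

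FGF2, on the minus strand of chr17:34801330-34860849, moved the opposite way. Its level was 3.31, 4.24 and 2.95 FPKM in GM and 6.24, 4.89 and 7.14 FPKM in DM. The groups did not overlap, although the highest GM library and the lowest DM library lay close together, at a ratio of 1.15. The mean went from 3.50 ± 0.667 to 6.09 ± 1.13 FPKM (SD, n = 3), 1.74 times more in DM, and the fitted log2 difference was 0.65 with a 95% interval from 0.33 to 0.98. Without the third GM library this difference was 0.56 and without the third DM library 0.55, both below the 1.5-fold limit used for calls. The end of FGF2 overlaps NUDT6, a gene encoded on the other strand at chr17:34747124-34807159. NUDT6 had 1.24 ± 0.172 FPKM in GM and 1.22 ± 0.268 FPKM in DM (SD, n = 3). The libraries were strand-specific, but whether the quantification used the strand is not given in the sources used here, so reads in the overlap are uncertain.

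FGF1, a ligand that binds all of the FGF receptors, was a minor transcript on chr7:53622273-53729308. It was at 0.666, 0.726 and 0.786 FPKM in GM and at 0.193, 0.191 and 0.202 FPKM in DM. The lowest GM value was 3.30 times the highest DM value. Its mean over the 6 libraries, 0.460 FPKM, was below the minimum of 0.5 FPKM used for the fit, so FGF1 was left out of the calls.

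The ligands can be set side by side because FPKM is per length. FGF3, FGF4, FGF6, FGF8, FGF11, FGF13, FGF16, FGF17, FGF20 and FGF23 have no deposited values and enter no share. The 12 FGF genes present in the table, counted here as ligands, summed to 55.1 ± 6.19 FPKM in GM and 32.1 ± 0.864 FPKM in DM (SD, n = 3). They include FGF12 and FGF14, which are not secreted ligands. In DM these had mean shares of 0.0593% and 0.0821% of the sum, and in GM 0.0128% and 0.0193%. FGF7 made up 81.3%, 76.9% and 77.3% of that sum in the GM libraries and 43.3%, 47.1% and 43.8% in the DM libraries. FGF2 went from 6.35 ± 1.03% in GM to 18.9 ± 3.03% in DM. FGF1 stayed a small share, 1.34 ± 0.267% in GM and 0.608 ± 0.00835% in DM. Among the ligands outside the set, FGF18 went from 0.532% to 11.5% and FGF10 from 1.31% to 10.4%.

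**Figure D1:**
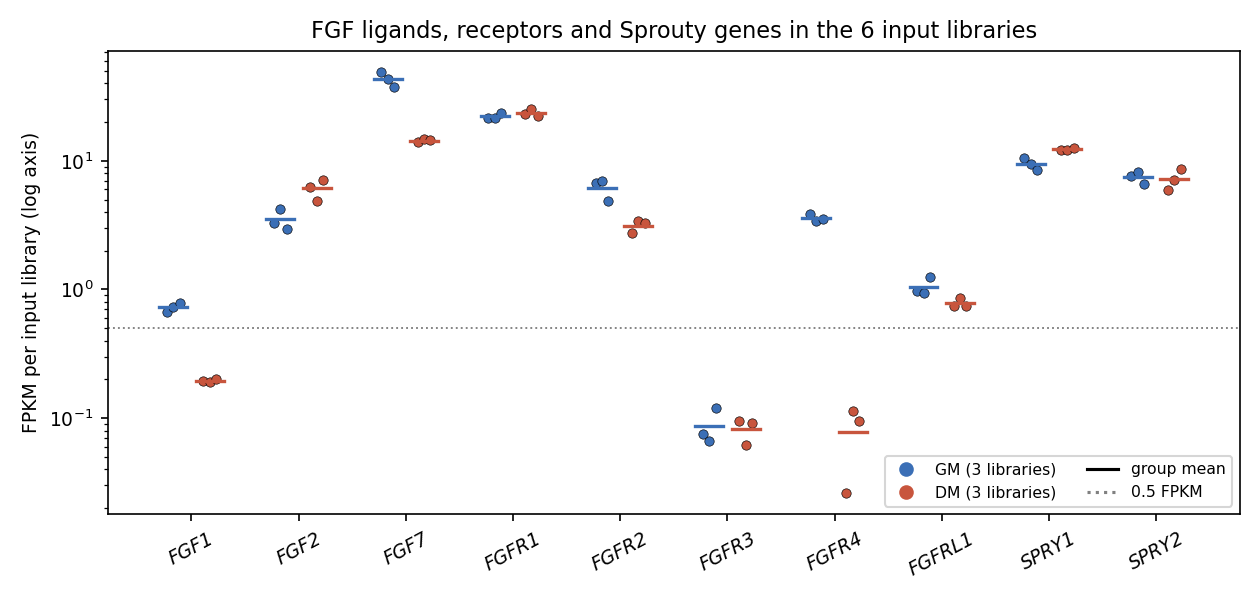
FPKM of the 10 genes in each of the 6 input libraries, on a log axis. Each point is a library, each short line a group mean of 3 libraries, and the dotted line the 0.5 FPKM minimum of the fit. FGF7 and FGFR4 show wide gaps between GM and DM, FGFR1 and SPRY2 overlap, and FGFR3 lies at or below 0.121 FPKM in every library.

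Among the receptors, FGFR1 was the most abundant, at overlapping levels in the groups. It lies on chr27:33549267-33599083 and is listed with 6 transcripts. Its level was 21.7, 21.6 and 23.6 FPKM in GM and 23.3, 25.1 and 22.2 FPKM in DM. The groups overlapped, and the fitted log2 difference was 0.08 with a 95% interval from -0.07 to 0.22. These are levels of the gene over all of its transcripts, and splice forms were not separated for any receptor.

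FGFR4, on the plus strand of chr7:38575410-38586456, showed the widest gap of the set. The GM libraries had 3.87, 3.41 and 3.56 FPKM and the DM libraries 0.0261, 0.114 and 0.0950 FPKM. The lowest GM library was at 30.0 times the highest DM library. The mean went from 3.61 ± 0.233 to 0.0782 ± 0.0461 FPKM (SD, n = 3), a ratio of 46.2. The log2 difference depended on the pseudocount, because the DM values lie far below 1 FPKM. It was -2.10 with a standard error of 0.0787 on log2(FPKM + 1) and -4.42 with a pseudocount of 0.1.

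FGFR2, on chr26:41450745-41558092, was also lower in myotubes. It had 6.72, 6.93 and 4.87 FPKM in GM and 2.73, 3.41 and 3.26 FPKM in DM. The groups did not overlap, and the third GM library lay nearest to the DM values. The means of 6.18 ± 1.13 and 3.14 ± 0.356 FPKM (SD, n = 3) differ 1.97 times, and the fitted log2 difference was -0.79 with a 95% interval from -1.07 to -0.50.

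FGFR3, on chr6:116766295-116780691, was near the floor in both groups. It had 0.0748, 0.0658 and 0.121 FPKM in GM and 0.0948, 0.0623 and 0.0915 FPKM in DM. The groups overlapped, and the gene was too low to enter the fit.

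As a share of the summed FPKM of FGFR1 to FGFR4, FGFR1 made up 67.0%, 67.4% and 73.4% in the GM libraries and 89.1%, 87.5% and 86.6% in the DM libraries. FGFR4 made up 11.2 ± 0.664% in GM and 0.288 ± 0.164% in DM (SD, n = 3). FGFR2 made up 19.2 ± 3.54% and 11.7 ± 1.13%. The summed level was 32.2 ± 0.180 FPKM in GM and 26.8 ± 1.65 FPKM in DM. The larger share of FGFR1 in DM thus stood beside a level of FGFR1 that overlapped between the groups and lower levels of FGFR2 and FGFR4.

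**Figure D2:**
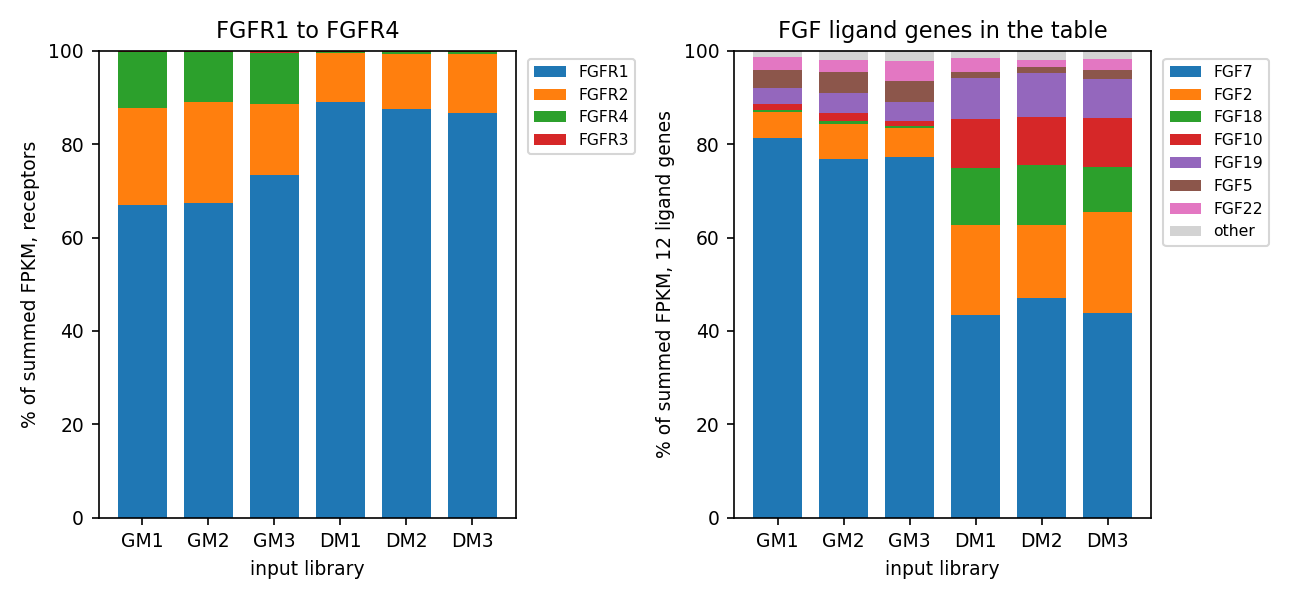
Share of each gene in the summed FPKM of the 4 signalling receptors (left) and of the 12 FGF genes counted as ligands (right), for each of the 6 input libraries. FGFR1 takes 67.0% to 73.4% of the receptor sum in GM and 86.6% to 89.1% in DM, and FGF7 takes 76.9% to 81.3% of the ligand sum in GM and 43.3% to 47.1% in DM.

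FGFRL1 binds FGFs but lacks the intracellular kinase domain of the other receptors. It lies on chr6:117346407-117358800. It had 0.980, 0.932 and 1.25 FPKM in GM and 0.742, 0.864 and 0.746 FPKM in DM. The groups did not overlap but came within a ratio of 1.08, and the fitted log2 difference of -0.20 had a 95% interval from -0.40 to 0.00.

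The Sprouty genes encode intracellular inhibitors of receptor signalling to RAS and MAPK. SPRY1, on chr17:34353125-34357245, had 10.5, 9.52 and 8.46 FPKM in GM and 12.1, 12.1 and 12.5 FPKM in DM. Every DM library was above every GM library, and the means of 9.49 ± 1.02 and 12.3 ± 0.239 FPKM (SD, n = 3) gave 1.29 times more in DM, short of the 1.5-fold limit. SPRY2, on chr12:55341982-55343875, had 7.68, 8.12 and 6.55 FPKM in GM and 5.89, 7.04 and 8.56 FPKM in DM. The SPRY2 groups overlapped, with the lowest and the highest value of all 6 libraries both in DM. Its log2 difference was -0.06 with the deposited FPKM, 0.06 after scaling each library to the same sum over genes (TPM) and 0.06 without the first DM library. The TPM sum is larger than the deposited sums, and the pseudocount stayed at 1. TPM scaling therefore also made the pseudocount smaller relative to the values.

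In GM the order of the levels was FGF7, FGFR1, SPRY1, SPRY2, FGFR2, FGFR4, FGF2, FGFRL1, FGF1 and FGFR3. Of the neighbours in this order, SPRY2 and FGFR2 overlapped in their library values, as did FGFR4 and FGF2. In DM the order was FGFR1, FGF7, SPRY1, SPRY2, FGF2, FGFR2, FGFRL1, FGF1, FGFR3 and FGFR4. There the neighbours SPRY2 and FGF2 overlapped, and so did FGFR3 and FGFR4.

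A gene was called where limma gave a Benjamini-Hochberg adjusted p below 0.05 over the 12302 genes tested and the fold on log2(FPKM + 1) was over 1.5. Of the 10 genes, 8 had the mean of 0.5 FPKM needed for the fit. Of these, FGF2 was called higher in DM, where 4.89% of all tested genes were. FGF7, FGFR2 and FGFR4 were called lower, as were 6.88% of all tested genes. FGFR1, FGFRL1, SPRY1 and SPRY2 were not called. The 4 calls in 8 tested genes stand beside 11.8% of all tested genes called in either direction. The library values of the groups did not overlap for 6 of the 8, against 54.1% of all tested genes. The median log2 difference was -0.13 over the 8 genes and -0.05 over all genes tested. These counts rest on the values by which the genes were chosen and are given for scale.

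For each called gene the genes with the most similar levels over the 6 libraries were taken by the Euclidean distance on log2(FPKM + 1). Nearest to FGF7 were VEGFC, a lymphatic growth factor, at a distance of 0.438, and ID2, an inhibitor of basic helix-loop-helix factors, at 0.459. VEGFC had 41.3 ± 1.33 FPKM in GM and 12.6 ± 0.337 FPKM in DM (SD, n = 3). Nearest to FGFR4 were a gene without a symbol, ENSBTAG00000054182, at 0.367 and the mitotic kinase TTK at 0.377, which went from 3.92 ± 0.502 to 0.205 ± 0.103 FPKM. Nearest to FGFR2 were SGO2, which protects centromeric cohesion, at 0.248 and DBF4, a regulator of replication start, at 0.317. Nearest to FGF2 were EXOC6, an exocyst subunit, at 0.367 and EDIL3, a secreted integrin ligand, at 0.390.

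The m6A data are peak lists, 1 for GM and 1 for DM, called by the authors from the IP and input libraries of the group together. The fold enrichment of a peak is the ratio of IP to input signal within it. These lists hold no replicate values for a peak, so its differences carry no error and no test here. The read depth behind a peak is not given in the lists. The study also called peaks in each sample and screened for peaks that differed between GM and DM. Those results were not used here, and the peaks below were not checked against them. Of the 10 genes, 9 had at least 1 peak in GM, where 57.0% of all genes in the table did. In DM 9 had a peak, where 63.3% of all genes did. The 9 genes were the same in both lists, against 53.0% of all genes with a peak in both. FGFR3 had no peak. These shares count all 18436 genes, of which 12302 had the mean of 0.5 FPKM needed for the fit, as did 8 of the 10. Shares among genes of similar level were not taken.

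The GM list held 17 peaks of the set, of which 11 were annotated to 3′ UTRs, 5 to 5′ UTRs and 1 to an exon. The DM list held 14, of which 9 were in 3′ UTRs, 3 in 5′ UTRs and 2 in exons. A peak carries a single annotation although it can span several features, and the SPRY1 peak annotated to the 5′ UTR ran in 2 blocks through 1306 bases of exon in GM. When a GM and a DM peak on the same strand shared at least 1 base of exon and neither overlapped a further peak of the other list, they were taken as a matched pair. There were 9 such pairs in 8 of the genes, which left out FGF1 and FGFR3. The ratio of DM to GM enrichment was over 1.5 in 3 pairs, against 14.2% of the 10239 pairs of all genes. It was under the inverse of 1.5 in 1 pair, against 10.8% of all pairs, so that 4 of the 9 pairs and 25.0% of all pairs differed in either direction. The median log2 ratio was 0.15 over the 9 pairs and 0.07 over all pairs.

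FGFR1 carried the pair that was lower in DM. Its peak at chr27:33549267-33549974, at the 3′ end of the gene, had the same 3 blocks and 360 bases of exon in both lists. The enrichment was 4.17 in GM and 2.52 in DM, a log2 ratio of -0.73, beside an FGFR1 level that overlapped between the groups. A further GM peak at the other end of the gene, in the 5′ UTR at chr27:33598843-33599023 with an enrichment of 1.82, had no overlapping peak in the DM list.

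FGFR4 had the largest ratio of the set and the least certain peak. In GM its 3′ UTR peak at chr7:38586067-38586336 had an enrichment of 2.04, with a false discovery rate of 6.03e-08 in the deposited list. In DM the 3′ UTR peak at chr7:38586187-38586456 had an enrichment of 7.45, with a false discovery rate of 0.132. Each covered 270 bases and they shared 150. The FGFR4 input level in DM averaged 0.0782 FPKM, and the part of this low input in the ratio was not tested. The pair was lost when a false discovery rate under 0.001 was required.

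FGFR2 had 2 matched pairs in its 3′ portion. The larger peak, at chr26:41451940-41457240 in GM and chr26:41451821-41458550 in DM, covered 719 and 868 bases of exon. Its enrichment was 3.21 in GM and 5.08 in DM, a log2 ratio of 0.66. The smaller peak near the 3′ end, from position 41450775 in GM and 41450865 in DM, had 1.87 and 2.07 and shared only 60 bases between the lists.

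FGF7 was covered by 4 blocks of peak in both lists, 1073 bases of exon in GM and 1281 in DM. The enrichment was 2.77 in GM and 4.29 in DM, a log2 ratio of 0.63, or 0.56 once centred on the median of all pairs, which is below the 1.5-fold limit. FGF7 and FGFR2 thus had lower input levels and higher m6A enrichment in DM, and both values of FGFR4 lay in the same directions. Once centred, the larger FGFR2 pair was at 0.59, barely past the 1.5-fold limit. The FGFR4 peak in DM had a false discovery rate of 0.132. Over all genes, 21.4% of the 532 pairs on genes called lower in DM had a ratio over 1.5, against 12.2% of the 8076 pairs on genes not called and 8.48% of the 460 pairs on genes called higher. Fold enrichment has the input in its denominator, and how far this sets the relation was not tested.

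FGF2 had a pair across 3 blocks that began near the start of the gene, with 2.00 in GM and 2.35 in DM and 211 shared bases. The DM list alone held an FGF2 peak at the 3′ end, chr17:34801330-34801510, with an enrichment of 2.93. This stretch is the one that overlaps NUDT6.

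FGF1 had 4 peaks in GM and 2 in DM, all in its 3′ UTR, and they could not be matched in pairs because a GM peak overlapped both DM peaks and a DM peak overlapped 3 GM peaks. The GM peaks had enrichments of 6.40, 2.52, 3.52 and 3.48, from the 3′ end inwards, and the DM peaks 16.0 and 11.7. The most distal GM peak, chr7:53622273-53622751, overlapped no peak of the DM list. The input level beside the DM enrichments was 0.195 FPKM.

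FGFRL1 had 4 peaks in the 3′ UTR in GM, of which 1 was matched in DM. That peak went from an enrichment of 2.86 over 388 bases to 2.21 over 150 bases. The 3 GM peaks without a partner had 1.67, 1.55 and 3.40, and the one with 1.55 had a false discovery rate of 0.101.

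The Sprouty genes had long peaks with nearly equal enrichment in both lists. The SPRY1 peak had 5.32 in GM and 5.69 in DM, and the SPRY2 peak 3.69 and 3.48. The DM peaks were longer than the GM peaks towards the 3′ end: 1514 against 1306 bases of exon in SPRY1 and 1480 against 1095 in SPRY2. Further weak DM peaks of SPRY1 near its 3′ end, with 1.6 and 1.34, overlapped no GM peak. The one with 1.6 had a false discovery rate of 0.0676.

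**Figure D3:**
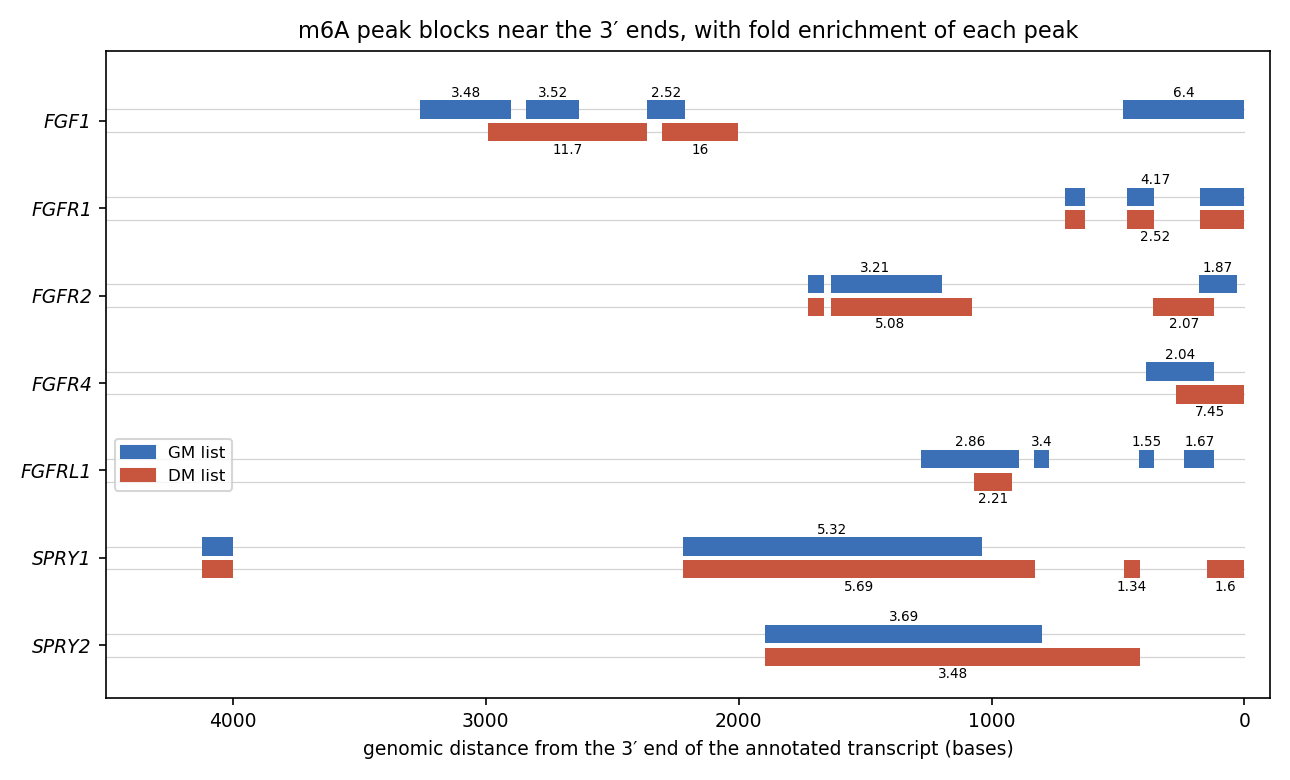
Blocks of the m6A peaks near the 3′ ends of 7 of the genes, against the genomic distance from the 3′ end in bases, with GM above and DM below each line and the fold enrichment of each peak beside it. The FGFR1 blocks coincide, the DM blocks of SPRY1 and SPRY2 reach further towards the 3′ end, and the most distal FGF1 block and 3 FGFRL1 blocks are in the GM list alone. FGF2 and FGF7, whose peaks spread over distant exons, and FGFR3, which has none, are not drawn.

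**Figure D4:**
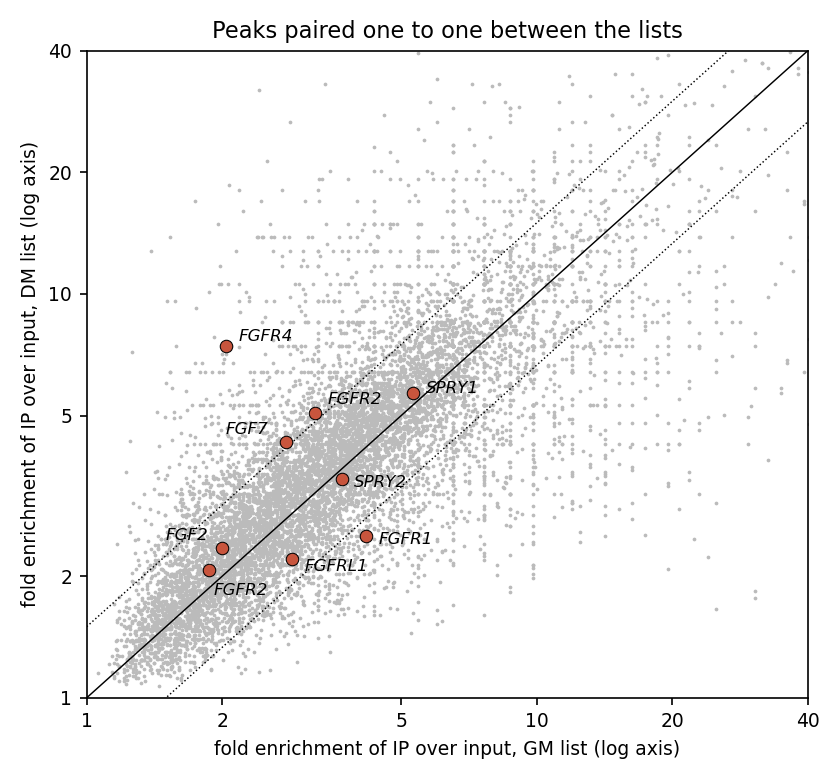
Fold enrichment of m6A peaks matched between the lists, GM against DM on log axes cut at 40, with grey for all pairs and labelled points for the 9 pairs of the set. The solid line marks equal values and the dotted lines a 1.5-fold difference. FGFR4 at 2.04 and 7.45 lies farthest from the line, and FGFR1 at 4.17 and 2.52 lies below the lower dotted line.

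The rest of the pathway was described from a list of 85 genes that left out the 10 above. Of these, 65 were in the table and 55 were tested, and the other 20 were not analysed here. By the same call, 3 were higher in DM, 3 were lower and 49 were not called. This is near the shares over all tested genes, 4.89% higher, 6.88% lower and 11.8% in either direction. After TPM scaling the split was 7 higher and 2 lower, and over all called genes the share that was higher moved from 41.6% to 55.5%. This scaling moved the median log2 difference of all tested genes from -0.05 to 0.06. The deposited FPKM summed to 415740 to 434458 per GM library and 386437 to 390827 per DM library.

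Among the other ligands, 4 of the 5 tested passed the call, 2 in each direction, where 11.8% of all tested genes passed it. FGF18, from the subfamily of FGF8, had 0.288, 0.325 and 0.263 FPKM in GM and 3.89, 4.00 and 3.19 FPKM in DM. Its log2 difference was 1.86 (adjusted p = 2.0e-06, limma). FGF10, from the subfamily of FGF7, rose from 0.736 ± 0.268 to 3.34 ± 0.147 FPKM (SD, n = 3), with a log2 difference of 1.33 (adjusted p = 5.5e-05, limma). FGF5, known for its control of hair growth, fell from 2.35 ± 0.161 to 0.506 ± 0.151 FPKM, with a log2 difference of -1.16 (adjusted p = 3.5e-05, limma). FGF22, also of the FGF7 subfamily, had a log2 difference of -0.65 (adjusted p = 0.0037, limma), which was -0.56 without the third GM library and -0.55 without the second DM library, both short of the call. In all 4, which were picked by the call on these same values, the groups did not overlap, as in 54.1% of all tested genes. As for FGFR4, the size depended on the pseudocount: with 0.1 the log2 differences were 3.27 for FGF18, 2.10 for FGF10, -2.04 for FGF5 and -1.15 for FGF22.

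In the heparan sulfate group 1 of 15 tested genes passed. GLCE, the epimerase that converts glucuronic to iduronic acid in the chain, rose from 10.1, 10.1 and 9.73 FPKM in GM to 17.6, 15.7 and 17.4 FPKM in DM, with a log2 difference of 0.70 (adjusted p = 4.8e-05, limma). None of the 10 adaptors, 12 RAS-MAPK genes, 8 other feedback genes and 2 co-receptors tested was called by limma on the deposited FPKM. After TPM scaling the adaptor FRS2, the RAS-MAPK scaffold KSR1, the co-receptor FLRT2 and, in the heparan sulfate group, the glypican GPC1 were called higher. Of the feedback genes, the phosphatases DUSP6 and DUSP7 were called without the first DM library, and DUSP7 also with a pseudocount of 0.1. An adjusted p below 0.05 without the fold limit was reached by 2 of the adaptors, 3 of the RAS-MAPK genes, 4 of the feedback genes and 1 of the co-receptors, where 42.8% of all tested genes reached it. Of the 3 ETS factors that serve as transcriptional targets of FGF signalling, ETV1 fell from 10.9 ± 0.856 to 6.62 ± 0.634 FPKM, with a log2 difference of -0.65 (adjusted p = 4.2e-04, limma). ETV1 was not called after TPM scaling (-0.57) or without the first DM library (-0.58). The log2 differences ran from -0.09 to 0.49 over the adaptors, from -0.42 to 0.46 over the RAS-MAPK genes and from -0.53 to 0.41 over the feedback genes.

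**Figure D5:**
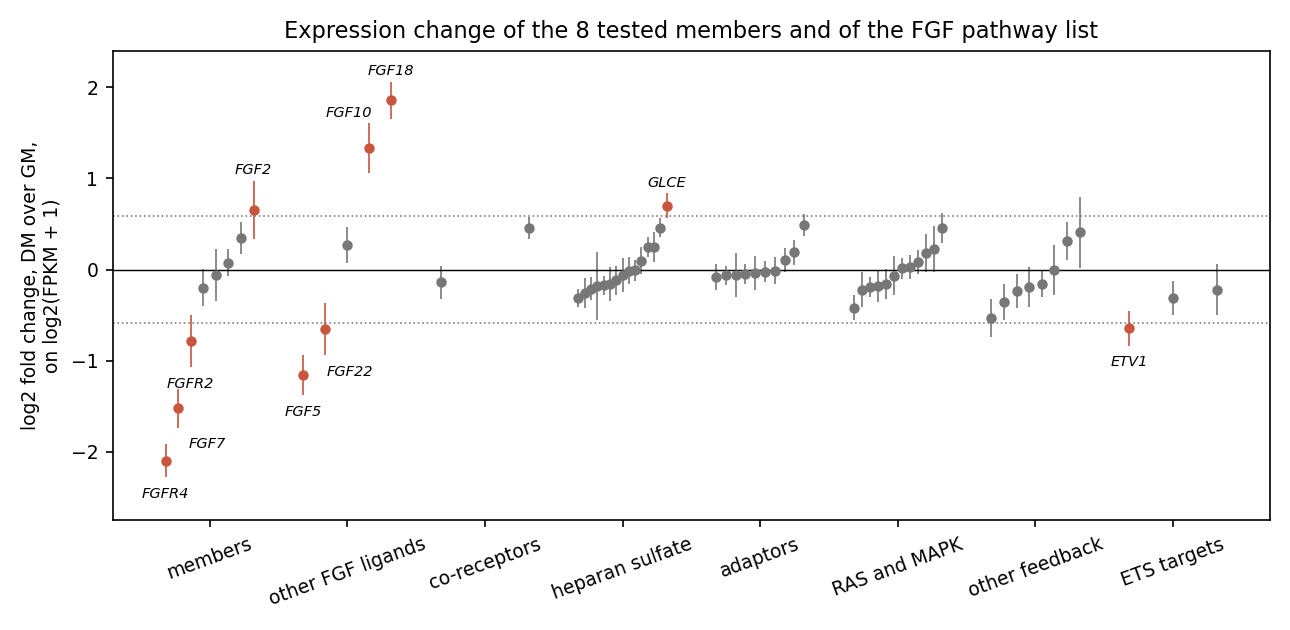
Fitted log2 difference of DM from GM on log2(FPKM + 1) for the 8 tested genes of the set and the 55 tested pathway genes, in columns by role, with 95% intervals. Named points in red were called, grey points were not, and the dotted lines mark 1.5-fold. FGF18 at 1.86 and FGFR4 at -2.10 are the extremes, and the adaptor, RAS-MAPK and feedback columns hold no gene called on the deposited FPKM.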

How the data were processed

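RNA was measured in the 3 GM and 3 DM input libraries, and m6A in the peak lists of each group. Per the labels and the methods of the study, reads were trimmed and aligned with HISAT2 to ARS-UCD1.2. The labels name cutadapt and fastp and the methods Trimmomatic for trimming; tool versions and the annotation release are not given in the sources used here. The deposited FPKM are the authors' StringTie values per gene. For the peaks, the authors kept uniquely mapped reads without duplicates (Sambamba) and ran exomePeak on the pooled libraries, with ChIPseeker annotation. The deposited fold enrichment is their linear ratio of IP over input, each peak's p-value was deposited without adjustment, none above 0.05, and another deposited column, of a unit other than these, holds log10 of the false discovery rate. Depth per gene or peak is not in the files, whole reads could not be recovered from the FPKM, and no counting interval is given.

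From these files log2(FPKM + 1) was fitted with limma 3.58.1 (R 4.3.3, variance trend, genes of mean FPKM at least 0.5, 6 inputs, no covariate), with Benjamini-Hochberg adjustment over all tested genes and calls at an adjusted p below 0.05 and a fold over 1.5. The study counted reads and used edgeR, and those counts were not used here. Peaks were matched with Python 3.11.15 and pandas 2.3.3 where exactly 1 GM and 1 DM peak shared at least 1 base of exon on a strand. Both steps were tested on simulated data. The genes named are the 10 of the set, every called gene of the pathway list, and for each called gene of the set the 2 tested genes at the smallest Euclidean distance. The members and lists were chosen with earlier results of these data known. P-values rest only on the spread between libraries, which limma takes in part from all tested genes. The replicate numbers did not pair the samples. Other values named in the text were chosen after they were seen.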

Additional observations from a re-analysis of the deposited data

How the results depend on the processing

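The precision is limited by 3 libraries per group, by peak lists without replicates and by low input levels of FGF1, FGFR3 and, in DM, FGFR4. Over pseudocount, filter, scaling, variance trend and replicate block, the same 4 genes of the set met the call limits; 5 were called without the fold limit, which added SPRY1, and 2 at a fold over 2, FGF7 and FGFR4. Leaving out each library in turn gave 3 to 4, FGF2 being lost without the third GM or the third DM library. The pathway genes called higher, 3 as reported, numbered 7 after TPM scaling and 12 without the fold limit, and 3 to 4 with a library left out. Those called lower, also 3, numbered 13 without the fold limit and 1 at a fold over 2, and 2 to 3 with a library left out. Over all genes the 1448 calls became 1948 with a pseudocount of 0.1, 1729 after TPM scaling, 504 at a fold over 2 and 5268 without the fold limit. The GM peaks of the set, 17 as reported, were 11 at a false discovery rate under 0.001, where the DM peaks were 10 of 14. The 4 pairs past 1.5-fold became 3 at that rate, 3 after centring and 1, FGFR4, at a ratio over 2. The cause of these moves was not tested, beyond what the stricter limits themselves set. TPM scaling changed the library sums and, because the pseudocount stayed at 1, also its size relative to the values. These parts were not separated. FGF1 and FGFR3 entered the fit without the filter, at log2 differences of -0.53 and -0.01, and were not called. Among the log2 differences of the set, those that moved beyond the spread and are not given in the report were, after TPM scaling, FGF2 at 0.85, FGFR1 at 0.20, FGFR4 at -2.99 and SPRY1 at 0.48, and with a pseudocount of 0.1 FGFR2 at -0.94 and FGFRL1 at -0.38. Of the pathway genes named, FGF18 was at 2.63, FGF10 at 1.84, FGF5 at -1.52, FGF22 at -0.82 and GLCE at 0.85 after TPM scaling.

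The replicate numbers did not pair the samples. The correlations of same-numbered deviations were -0.08, -0.12 and -0.21, and no library correlated best with its own number. With the replicate number as a block, 4 genes of the set and 3 higher and 3 lower pathway genes were called, as without it, and 1459 genes in all.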

Other observations

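The FGF ligands outside the set also carried m6A peaks. FGF22, called lower in DM, had a 3′ UTR peak at chr7:43261594-43262337 with an enrichment of 19.8 in GM and, over nearly the same bases, 76.7 in DM, a log2 ratio of 1.95. FGF10, called higher, had a peak that began at chr20:30504441 in both lists with 14.2 in GM and 3.92 in DM. FGF18, also called higher, had a 3′ UTR peak with 13.1 in the GM list alone, while its DM peak, in the 5′ UTR, had 1.79 at a false discovery rate of 0.0575. FGF9 had 2 matched pairs that were lower in DM, with 8.71 and 4.79 and with 6.53 and 4.26, at an input level of 0.0923 ± 0.0415 FPKM in GM and 0.314 ± 0.0946 FPKM in DM (SD, n = 3). The GM peak of the second pair had a false discovery rate of 0.23, and the pair shared 31 bases. FGF22 in DM and FGF10 and FGF18 in GM had input levels below 1 FPKM, and the part of this in their enrichment was not tested.

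Among the 65 pathway genes in the table, 49 had a GM peak and 55 a DM peak, and 37 genes had 51 matched pairs with a median log2 ratio of 0.00. Over all genes 57.0% had a GM peak and 63.3% a DM peak. These shares include the genes too low for the fit, which 12302 of all 18436 genes and 55 of the 65 entered. Over 1.5-fold higher in DM were 4 of the 51 pairs, against 14.2% of all pairs, and over 1.5-fold lower were 4, against 10.8%. The higher pairs were those of FGF22, of SDC3, a syndecan, with 5.81 and 10.6, and of the RAS exchange factors SOS2, with 5.52 and 8.38, and SOS1, with 2.50 and 4.00, whose DM peak is annotated to a microRNA gene. SDC2 was lower, with 6.53 and 3.80. DUSP6, a phosphatase that acts on ERK and is induced by FGF signalling, had 4.75, 3.84 and 3.95 FPKM in GM and 4.14, 6.65 and 7.16 FPKM in DM, so the groups overlapped through the first DM library. The genes in this section were chosen after their values were seen.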
